A study of Mus musculus with 2 samples.

Results

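A set of 10 natural killer receptor genes was followed across lymphocytes of a mouse tumour: the NKR-P1 genes Klrb1a, Klrb1b, Klrb1c and Klrb1f, the NKG2 and CD94 genes Klrc1, Klrd1 and Klrk1, the related pair Klre1 and Klri2, and Ncr1. The members were given as this list of 10 genes, out of 27188 genes listed in either library and 22483 listed in both, and all 10 were listed in both. Their raw molecule counts (UMIs, unique molecular identifiers) were read in natural killer (NK) cells, in CD8 T cells with and without a Pdcd1 UMI, in CD4 T cells and in gamma-delta T cells. Both groups came from wild-type C57BL/6 mice with MC38 tumours, a mouse colon adenocarcinoma line, grown under the skin and taken on day 14. The PBM group received daily pulsed photobiomodulation, a light treatment, from day 7; what the control animals received in its place is not stated in the labels. CD45-positive cells were sorted and pooled within a condition, from a number of mice that is not stated, so each group is 1 library, and treatment, pool of animals and library cannot be told apart. No test between the groups was therefore made. Each interval below is an exact 95% interval that covers counting error only.

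The receptors of these families sit on NK cells and on some activated T cells and pass on either activating or inhibitory signals when they meet ligands on other cells. CD94, encoded by Klrd1, pairs with NKG2A, encoded by Klrc1, to form an inhibitory receptor for the nonclassical class I molecule Qa-1. NKG2D, encoded by Klrk1, is an activating receptor for stress-induced ligands of the RAE-1, H60 and MULT1 families and signals through the adaptors DAP10 and DAP12. Among the NKR-P1 receptors, Klrb1c encodes the antigen NK1.1, Klrb1b encodes an inhibitory receptor for Clr-b, and Klrb1a and Klrb1f encode further members; Ncr1 encodes the activating receptor NKp46. Klre1 encodes a chain that pairs with Klri1 in an inhibitory or with Klri2 in an activating receptor.

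Of the 10 genes, 9 lie within 1131 kb of mouse chromosome 6 (GRCm38.p6, 128609227 to 129740484), and Ncr1 lies on chromosome 7 (4337715 to 4345184); all 10 are protein-coding. RefSeq promoter windows of 300 bases around an annotated transcript start (GRCm38.p6) were found for 8 of the 10, Klrd1 and Klri2 being the others. Where a gene had several windows the first listed was used. Those of Klrc1 and Klre1 lie inside the listed span of the gene rather than at its outer end. The letters TGTGGT or their complement ACCACA, the core bound by RUNX factors, were present in 6 of these 8 windows on either strand. Among all 27025 promoter windows of that length, 16.9% held them. The T-box letters AGGTGT or ACACCT were in 0 of the 8 windows and in 13.9% of all windows. Windows are shown for the genes on which the results below turn: Klrc1 and Klrk1, with large differences in CD8 cells, Klrb1c and Klrb1b, which went opposite ways in NK-like cells, and Ncr1. Each is written 5′ to 3′ on the gene's strand, with the RUNX letters in capitals; a match is a description of the letters and not a bound site.
Klrc1 (chr6:129678924-129679223, minus strand): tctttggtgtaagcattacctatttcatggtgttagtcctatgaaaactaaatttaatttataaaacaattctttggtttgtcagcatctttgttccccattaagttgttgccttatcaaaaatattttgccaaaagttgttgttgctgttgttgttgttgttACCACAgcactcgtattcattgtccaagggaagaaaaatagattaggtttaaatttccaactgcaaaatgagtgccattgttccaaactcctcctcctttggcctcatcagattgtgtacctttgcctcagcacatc
Klrk1 (chr6:129623815-129624114, minus strand): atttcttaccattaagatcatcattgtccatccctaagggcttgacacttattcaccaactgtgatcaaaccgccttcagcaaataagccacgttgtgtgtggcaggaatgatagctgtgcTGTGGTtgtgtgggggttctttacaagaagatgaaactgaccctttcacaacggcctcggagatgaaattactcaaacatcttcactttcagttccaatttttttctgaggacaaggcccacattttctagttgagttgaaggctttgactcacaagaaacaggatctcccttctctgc
Klrb1c (chr6:128788592-128788891, minus strand): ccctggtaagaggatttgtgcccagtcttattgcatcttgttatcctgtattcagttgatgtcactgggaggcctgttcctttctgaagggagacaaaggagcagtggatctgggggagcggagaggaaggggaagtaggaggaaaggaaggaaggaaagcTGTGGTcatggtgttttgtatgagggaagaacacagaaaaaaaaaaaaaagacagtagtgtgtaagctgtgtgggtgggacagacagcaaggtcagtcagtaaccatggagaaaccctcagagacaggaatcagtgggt
Klrb1b (chr6:128826266-128826565, minus strand): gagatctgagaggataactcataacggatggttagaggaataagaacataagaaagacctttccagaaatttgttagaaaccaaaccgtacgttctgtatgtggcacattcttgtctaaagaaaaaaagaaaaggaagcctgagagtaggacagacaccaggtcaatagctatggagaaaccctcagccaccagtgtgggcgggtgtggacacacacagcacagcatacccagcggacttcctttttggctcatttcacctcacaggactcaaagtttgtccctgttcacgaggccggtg
Ncr1 (chr7:4337465-4337764, plus strand): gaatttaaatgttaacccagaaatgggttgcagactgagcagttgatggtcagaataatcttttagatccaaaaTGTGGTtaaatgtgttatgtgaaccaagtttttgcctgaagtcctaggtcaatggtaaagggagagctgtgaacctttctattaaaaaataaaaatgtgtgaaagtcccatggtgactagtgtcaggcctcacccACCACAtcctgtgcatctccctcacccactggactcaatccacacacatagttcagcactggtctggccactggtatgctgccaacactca
The Ncr1 window held 2 matches, those of Klrc1, Klrk1 and Klrb1c 1 each, and that of Klrb1b none. Klrb1a and Klrb1c had the most alike windows, with identical bases in 69.4% of 340 aligned columns.

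The control library held 11238 cell barcodes and 104673228 UMIs, and the PBM library 13962 barcodes and 86159897 UMIs, with medians of 5621.5 and 5143.5 UMIs per barcode. A total of 1991 barcode names occurred in both; these names are cell numbers, so a shared name does not identify a shared droplet. Cells were clustered without the 10 genes or their near copies, classes were named from marker genes, and T-like cells were then gated on UMIs of Cd4, Cd8a, Cd8b1, Pdcd1 and Trdc. This gave 1330 control and 196 PBM NK-like cells, 628 and 1177 CD8 cells without a Pdcd1 UMI, 597 and 28 CD8 cells with one, 550 and 1091 CD4 cells, and 57 and 43 gamma-delta cells. The gene for CD45, Ptprc, was at 549.9 to 1015 CPM (counts per 1000000, here UMIs per 1000000 UMIs of the class) in NK-like, CD8 Pdcd1-negative and CD4 cells. All 12 NK markers, from which the NK-like class was named, had UMIs in the NK-like cells of both libraries. They also did in the CD8 Pdcd1-negative and CD4 cells of both, so this count sets no class apart. Free RNA moved with the groups. In the 5 classes the 8 B cell markers summed to 16.7 to 143.8 CPM in control cells and 607.2 to 788.4 CPM in PBM cells, and the 10 monocyte and macrophage markers to 1166 to 1739 CPM in control cells and 57.9 to 359.4 CPM in PBM cells. The share of a level that free RNA could supply was estimated from the median over markers of other cell types, and is given beside some of the low values. That median was 9.73% to 13.5% of the library's own level in control classes and 15.7% to 18.4% in PBM classes. Single markers ran from 0 to 229% and from 0 to 34.7%, so the shares below are rough and set no limit.

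Klrb1c, which encodes NK1.1, had its highest level in NK-like cells of both libraries. There it stood at 441.6 CPM in the control (interval 428 to 455) and 649.6 CPM in the PBM library (600.2 to 702). In the control it was next highest in gamma-delta cells at 115.8 CPM, followed by CD8 Pdcd1-negative cells at 31.1, CD4 cells at 13.9 and CD8 Pdcd1-positive cells at 13.3 CPM, the last pair with overlapping intervals. In the PBM library it stood at 20.8 CPM in gamma-delta, 10.9 in CD8 Pdcd1-negative, 3.37 in CD8 Pdcd1-positive and 2.89 in CD4 cells, and each of these neighbours overlapped. Gamma-delta cells of the control also held RNA of other NK markers, as did the CD8 and CD4 classes, where all 12 had UMIs. In the gamma-delta cells 11 of 12 had UMIs, with Cma1 at 0, and summed to 3446 CPM. The sums were 1020 to 3144 CPM in the CD8 and CD4 classes and 15759.7 CPM in NK-like cells. The markers did not go alike: in gamma-delta cells Tyrobp was at 1134 CPM but Gzma at 31.9 CPM, against 1159.9 and 768.1 CPM of Gzma in CD8 Pdcd1-negative and Pdcd1-positive cells. In PBM gamma-delta cells 8 of the 12 had UMIs and summed to 664 CPM, with Car2, Cma1, Klra4 and Klra8 at 0. Their part in the gamma-delta levels of the members was not tested.

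Klrb1b, the inhibitory member, was at 292.8 CPM in control NK-like cells (282 to 304) and 179.2 CPM in PBM NK-like cells (154 to 208). In the control T classes it lay between 9.81 CPM (CD4) and 24.0 CPM (gamma-delta), with overlapping neighbours throughout. In the PBM T classes it lay between 2.12 CPM (CD8 Pdcd1-negative) and 20.2 CPM (CD8 Pdcd1-positive, 6 UMIs). NK-like cells were the only one of the 5 classes whose interval stood clear of the next. Klrb1a showed the same order of size in NK-like cells, with 90.2 CPM in the control (84.3 to 96.4) and 147.6 CPM in the PBM library (125 to 174), and at most 16.0 CPM in any T class. Klrb1f was at 101.3 CPM in control NK-like cells (95.1 to 108) and 132.4 CPM in PBM NK-like cells (111 to 157). It was the one NKR-P1 gene whose control gamma-delta level, 71.9 CPM (42.6 to 114), overlapped that of NK-like cells, while the other T classes of the control had 3.41 to 5.34 CPM. In control CD4 and CD8 cells free RNA could supply 23.6% to 67.4% of the Klrb1a level, 28.6% to 65.5% of the Klrb1b level, 22.2% to 48.4% of the Klrb1c level and 29.3% to 37.0% of the Klrb1f level.

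Klrc1, the NKG2A chain, was ordered differently. In the control its level was highest in CD8 Pdcd1-positive cells at 368.8 CPM (353 to 385), then CD8 Pdcd1-negative cells at 262.8 CPM (246 to 281), then NK-like cells at 189.2 CPM (181 to 198). Gamma-delta cells, at 131.8 CPM (90.7 to 185), overlapped NK-like cells, and CD4 cells were last at 42.0 CPM. In the PBM library NK-like cells stood first at 188.4 CPM (162 to 218), followed by 37.1 CPM in CD8 Pdcd1-positive, 36.3 in gamma-delta, 18.5 in CD8 Pdcd1-negative and 2.09 CPM in CD4 cells. The place of Klrc1 in CD8 cells against NK-like cells was therefore opposite in the 2 libraries.

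Klrd1, the CD94 chain, was at 660.3 CPM in control CD8 Pdcd1-positive cells (639 to 682) and 656.7 CPM in control NK-like cells (641 to 673), which overlapped. CD8 Pdcd1-negative cells followed at 515.4 CPM, gamma-delta cells at 447.3 and CD4 cells at 107.3 CPM. In the PBM library it was at 681.2 CPM in NK-like cells (631 to 735), 212.7 in gamma-delta, 153.1 in CD8 Pdcd1-negative, 84.4 in CD8 Pdcd1-positive and 22.3 CPM in CD4 cells. Gamma-delta and CD8 Pdcd1-negative cells overlapped there.

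Klrk1, which encodes NKG2D, was highest in NK-like cells of both libraries, with 484.5 CPM in the control (471 to 499) and 630.3 CPM in the PBM library (582 to 682). In the control the 3 classes below it were close together, at 352.4 CPM in CD8 Pdcd1-positive, 323.5 in gamma-delta and 301.9 in CD8 Pdcd1-negative cells, and neighbours among them overlapped; CD4 cells had 56.5 CPM. In the PBM library the same classes were at 158.6, 57.1, 30.4 and 3.69 CPM.

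Klre1 stood at 366.8 CPM in control NK-like cells (355 to 379) and 524.4 CPM in PBM NK-like cells (480 to 572). In the control it was at 118.4 CPM in CD8 Pdcd1-positive, 89.3 in CD8 Pdcd1-negative, 87.9 in gamma-delta and 11.2 CPM in CD4 cells, and in the PBM library at 40.5, 27.6, 25.9 and 1.44 CPM in the same order of classes. Its activating partner Klri2 was more restricted. It was at 155.9 CPM in control NK-like cells (148 to 164) and 287.1 CPM in PBM NK-like cells (255 to 323), and at most 29.5 CPM in any T class of the control and 5.19 CPM in any T class of the PBM library. Ncr1, which encodes NKp46, was at 370.1 CPM in control NK-like cells (358 to 382) and 519.3 CPM in PBM NK-like cells (475 to 566). In control gamma-delta cells it was at 79.9 CPM (48.8 to 123), and in the CD8 and CD4 classes of the control at 7.11 to 7.71 CPM, of which free RNA could supply 61.1% to 76.3%. In PBM CD8 Pdcd1-negative cells Ncr1 was at 2.67 CPM and in PBM CD4 cells at 0.481 CPM, of which the estimate came to 55.1% and 291%. Outside NK-like and gamma-delta cells Ncr1 was thus low, with free RNA able to supply over 50% of it in the classes given.

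**Figure D1:**
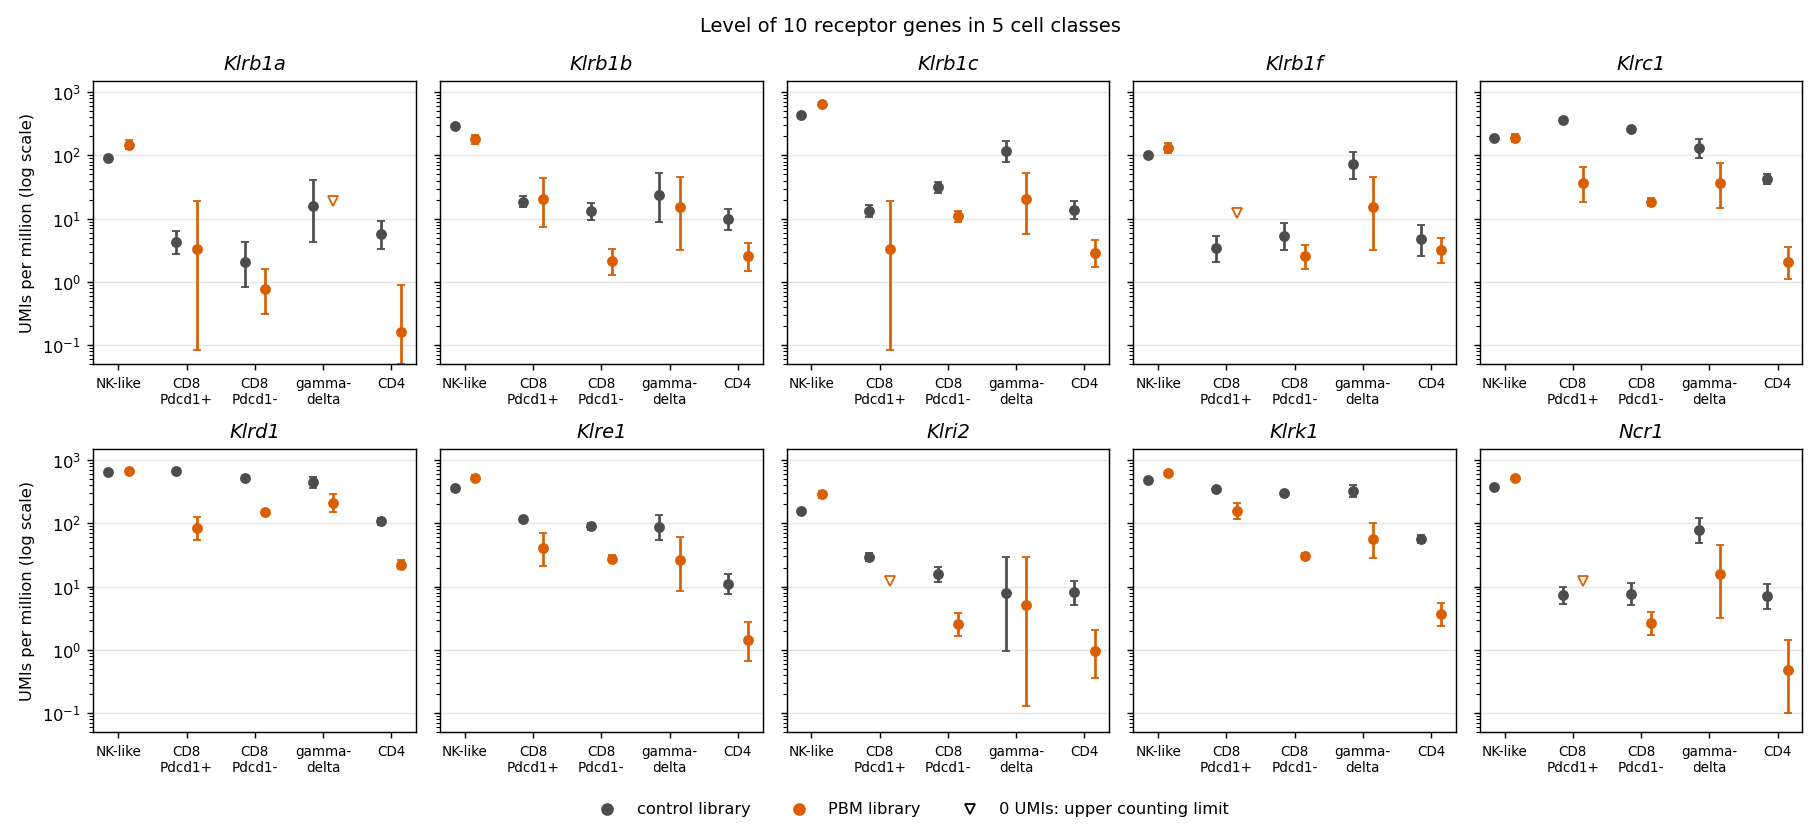
Level of each of the 10 genes (CPM, log axis) in 5 cell classes of the control (grey) and PBM (orange) libraries; bars are exact 95% counting intervals from 1 library each, and open triangles mark classes with 0 UMIs at their upper limit. NK-like cells hold the highest level of every gene except Klrc1 and Klrd1 in the control, and Klrc1 stands at 368.8 in control CD8 Pdcd1-positive cells against 37.1 in those of the PBM library.

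Near copies limit these values. Klrc2 and Klrc3, which resemble Klrc1, and Klrb1 and Klri1 have their own rows, and how reads shared between such copies were counted is not stated, so their split is uncertain. In NK-like cells Klrc2 was at 42.4 CPM in the control and 128.3 CPM in the PBM library, and Klrc3 at 1.44 and 9.16 CPM. In CD8 Pdcd1-negative cells Klrc2 was at 9.79 and 3.68 CPM.

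The first comparison was PBM against control in NK-like cells. Here a gene is called higher or lower where the counting interval of its log2 ratio leaves out 0, among genes with at least 20 UMIs over both libraries. Klrb1a, Klrb1c, Klrb1f, Klre1, Klri2, Klrk1 and Ncr1, 7 of 10, were higher in the PBM library, where 17.2% of 11082 genes were higher, and Klrb1b was lower, where 10.8% of genes were lower. None of the 10 differed by 2-fold or more, while 5.8% of all genes were at least 2-fold higher and 5.24% at least 2-fold lower. The median log2 ratio was 0.44 over the members and 0.09 over all genes. TMM scaling, which estimates the total from genes of moderate difference, lowered each NK-like ratio by 0.12 and gave 6 genes higher and 1 lower; in cells thinned to 1000 UMIs each, 4 were higher.

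Klri2 showed the widest of these differences, with 1517 UMIs in 1330 control cells and 282 UMIs in 196 PBM cells, a log2 ratio of 0.88 (0.69 to 1.07). Klrb1a followed with 0.71 (0.45 to 0.97), Klrb1c with 0.56 (0.43 to 0.68), Klre1 with 0.52 (0.38 to 0.65) and Ncr1 with 0.49 (0.35 to 0.62). Klrb1f had a log2 ratio of 0.39 (0.11 to 0.65) and Klrk1 of 0.38 (0.26 to 0.50). These 7 include activating receptors of 3 families, NK1.1, NKp46 and NKG2D, but also Klre1, whose chain can be part of an inhibitory receptor. Whether activating and inhibitory receptors differed was not tested. Both chains of the CD94 and NKG2A receptor had ratios near 0, with 0.05 for Klrd1 (-0.06 to 0.17), which was -0.07 under TMM scaling, and -0.01 for Klrc1 (-0.23 to 0.21). Klrb1b had a log2 ratio of -0.71 (-0.94 to -0.49), which was -0.0002 in cells gated without clusters.

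NK-like cells of the PBM library were few and carried more T cell RNA: the 10 T cell markers summed to 1051 CPM in control and 1649 CPM in PBM NK-like cells, and Cd3e was at 29.4 and 77.4 CPM. Among the 903 control and 63 PBM NK-like cells with no Cd3d, Cd3e or Cd3g UMI, 7 genes were higher and 0 lower, and the Klrb1b ratio was -0.40, with an interval that held 0. At a finer cluster resolution NK-like cells divided into a Klra8-led cluster of 986 control and 193 PBM cells and a Gzmg-led cluster of 311 control and 3 PBM cells. Within the control, the Gzmg-led cells had more Klrb1b, at 346.7 CPM against 260.7, and less Klrb1c, at 265.1 against 556.6, and Klri2, at 81.1 against 205.7. Klrd1 (668.6 and 653.6 CPM) and Ncr1 (371.1 and 373.5 CPM) had nearly the same level in both. Within the Klra8-led cluster alone, 6 genes were higher in the PBM library and Klrb1b was lower, with log2 ratios of 0.24 for Klrb1c, 0.51 for Klri2 and -0.53 for Klrb1b. Most ratios were thus smaller within 1 cluster than over the class. The share of all genes called was computed neither for the Klra8-led cluster nor for the cells without those Cd3 UMIs.

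In CD8 Pdcd1-negative cells the receptor genes were lower in the PBM library. Of the 9 that passed the count filter, 9 were lower, where 30.7% of 10988 genes were, and 9 by 2-fold or more, where 11.2% of genes were. Klrb1a, with 7 UMIs in each library, was under the count filter, and its interval held 0. At cluster resolution 0.5, where the Ifng-led cluster went unnamed and 69 control cells were left in the class, 2 genes were lower and Klrd1 had a log2 ratio of 0.28. The median log2 ratio of the 9 was -1.75, against -0.16 over all genes, and TMM scaling raised each ratio by 0.16 and gave 8 lower.

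The widest differences were those of the inhibitory chain Klrc1 and of Klrk1. Klrc1 had 886 UMIs (262.8 CPM) in control cells and 166 UMIs (18.5 CPM) in PBM cells, 14.2-fold lower with a log2 ratio of -3.83 (-4.08 to -3.59). Klrk1 had 1018 UMIs (301.9 CPM) and 273 UMIs (30.4 CPM), 9.92-fold lower with a log2 ratio of -3.31 (-3.51 to -3.12). Klrd1, the partner of Klrc1, was 3.37-fold lower, from 515.4 to 153.1 CPM, and Klre1 3.23-fold lower, from 89.3 to 27.6 CPM. Klrd1 therefore kept a larger part of its control level in PBM cells than Klrc1 did. Klri2 had a log2 ratio of -2.62, Klrb1b of -2.62, Ncr1 of -1.53, Klrb1c of -1.51 and Klrb1f of -1.06. These 5 were at 31.1 CPM or less in the control class, and free RNA could supply 16.8% to 72.5% of that level.

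Different clusters made up this class in the 2 libraries. Of the control cells 425 came from an Ifng-led and 152 from a Ly6c2-led cluster, while of the PBM cells 578 came from the Ly6c2-led and 437 from a Cd40lg-led cluster. The Cd40lg-led cluster has Cd4, but neither Cd8a nor Cd8b1, among its leading genes, and 1 Cd8a or Cd8b1 UMI was enough for the gate. NK-like cells, which were not gated on these genes, held Cd8b1 at 12.2 CPM in the control and 111 CPM in the PBM library. The part of stray Cd8a and Cd8b1 RNA in the PBM class was not tested. Within the Ly6c2-led cluster alone, 6 of the 10 genes were lower in PBM CD8 Pdcd1-negative cells, and the ratios were smaller for Klrd1 (-0.26), Klre1 (-0.38), Klrc1 (-1.44) and Klrk1 (-1.91). The share of all genes lower was not computed for these cells. At resolution 2.0 this cluster itself divided largely by library: 394 of its 419 control and 7 of its 739 PBM cells joined a Klra1-led cluster, and 12 and 673 a Gzmm-led one, so the values within it also compare different cells. The cluster also held cells that were not gated as CD8. Of its control cells 152 were CD8 Pdcd1-negative, 42 gamma-delta and 202 T-like without a gate, and of its PBM cells 578, 24 and 121. Over all cells of the Ly6c2-led cluster, which therefore do not stand for CD8 cells alone, 10 of 10 were lower, where 26.5% of 10283 genes were. By 2-fold or more 8 were lower, where 8.79% were. There Klrd1 stood at 366.9 and 241 CPM, Klrc1 at 101.2 and 35.1, Klrk1 at 238.2 and 63.4 and Klrb1c at 118.6 and 22.98 CPM.

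The Ifng-led cluster, whose leading genes include Ifng, Ccl4, Pdcd1 and Lag3, had the highest levels of the NKG2 and CD94 genes among the T-like clusters. In its 1084 control cells Klrd1 was at 654 CPM, Klrc1 at 366 and Klrk1 at 361 CPM. Only 16 PBM cells were in this cluster, and in them Klrd1 was at 402 CPM, Klrc1 at 197 and Klrk1 at 273 CPM. In the Cd40lg-led cluster, with 56 control and 2585 PBM cells, Klrd1 was at 30.3 and 24.7 CPM and Klrc1 at 15.1 and 0.865 CPM. The level in the class as a whole thus moved together with which clusters filled it; how much of the difference the make-up accounts for was not tested. The 12 NK markers, all with UMIs in both libraries, summed to 2998 CPM in control and 496.2 CPM in PBM CD8 Pdcd1-negative cells. They did not move alike. Gzma was at 1159.9 and 37.2 CPM, Eomes was higher in PBM cells, at 31.1 and 66.1, and the median over the 12 was 42.0 and 35.7 CPM. Their part in the result was not tested.

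**Figure D2:**
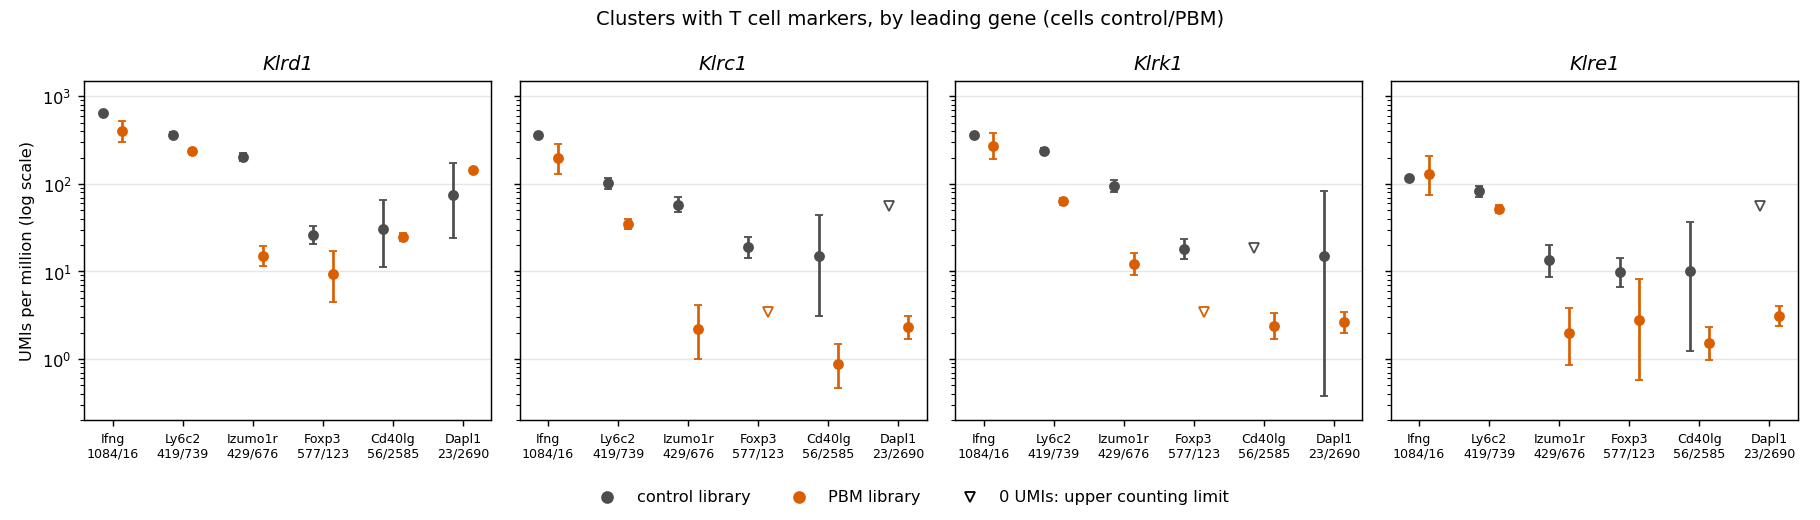
Level of Klrd1, Klrc1, Klrk1 and Klre1 (CPM, log axis) in clusters with T cell markers, each named by its leading gene with its control and PBM cell numbers; bars are 95% counting intervals and triangles mark 0 UMIs at the upper limit. Levels descend from the Ifng-led cluster, with Klrd1 at 654 in the control, to the Foxp3-led and Cd40lg-led clusters, where it is at 26.2 and 30.3, and of the 4 genes Klrd1 alone is high, at 145, in the Dapl1-led PBM cells.

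CD8 cells with a Pdcd1 UMI numbered 597 in the control but only 28 after PBM. Of 9 genes measured, 5 were lower in the latter, where 7.36% of 9935 genes were, and 5 by 2-fold or more (4.36% of genes). Klrc1 went from 368.8 to 37.1 CPM (11 PBM UMIs), a log2 ratio of -3.31 (-4.32 to -2.47), and Klrd1 from 660.3 to 84.4 CPM (25 UMIs), a log2 ratio of -2.97 (-3.60 to -2.40). Klre1 had a log2 ratio of -1.55 and Klrk1 the smallest of these, -1.15 (-1.60 to -0.74), from 352.4 to 158.6 CPM. The 2 groups came from different clusters: 567 of the control cells were Ifng-led, while of the PBM cells 12 were Ly6c2-led, 7 Ifng-led, 5 Izumo1r-led and 2 Cd40lg-led. Klri2 had 164 control UMIs and none in the PBM cells. It was 2.91-fold lower when 0 is set at the floor of 3 UMIs, and the interval of its log2 ratio ended at -1.23. The remaining genes had 6 or fewer UMIs in the PBM cells and intervals that held 0. Of the 9, 2 were lower in thinned cells, 2 with gates of 2 UMIs (4 PBM cells) and 0 at resolution 0.5 (10 control cells).

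Pdcd1 marked a difference among the CD8 cells of the control. Klrc1, Klrd1, Klre1, Klri2 and Klrk1 were higher in cells with a Pdcd1 UMI, 5 of 10 where 14.0% of 10720 genes were, by log2 ratios of 0.22 (Klrk1) to 0.91 (Klri2). Klrb1c was lower, at 13.3 against 31.1 CPM, a log2 ratio of -1.23 (-1.68 to -0.78), where 11.5% of genes were lower. The cluster make-up differed with Pdcd1: cells without a UMI were 425 Ifng-led and 152 Ly6c2-led, and cells with one 567 and 14. Over all cells of a cluster, not only CD8 cells, Klrb1c was at 16.0 CPM in the Ifng-led and 118.6 CPM in the Ly6c2-led control cluster. The part of the make-up and that of Pdcd1 in the Klrb1c ratio were not separated. Median depth also differed, at 7252 UMIs per cell with a Pdcd1 UMI and 4165.5 without, and a UMI gate favours deep cells. In the PBM library Klrk1 was higher in the 28 Pdcd1-positive cells, at 158.6 against 30.4 CPM, and so was Klrb1b, 2 of 9 where 12.1% of genes were; Klrd1 was lower, at 84.4 against 153.1 CPM, where 2.92% of genes were.

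CD4 cells had low levels in both libraries and lower ones in the PBM library. Of 9 genes above the count filter, 8 were lower, where 36.2% of 10690 genes were, and 8 by 2-fold or more (16.4% of genes). Klrc1 went from 42.0 to 2.09 CPM, a log2 ratio of -4.33 (-5.28 to -3.50), Klrk1 from 56.5 to 3.69 CPM, -3.94 (-4.63 to -3.30), and Klrd1 from 107.3 to 22.3 CPM, -2.27 (-2.56 to -1.97). Klrb1f, at 4.74 and 3.21 CPM, had an interval that held 0, and Klrb1a, with 17 and 1 UMIs, was under the filter with a ratio of -5.16 (-10.55 to -2.49). In PBM CD4 cells free RNA could supply 58.3% of the Klrc1 level, 78.5% of the Klrk1 level and 61% of the Klrd1 level. Within the Izumo1r-led cluster, with 244 control and 213 PBM CD4 cells, 5 genes were lower, although at resolution 2.0 that cluster too divided by library, with 410 of its 429 control and 123 of its 676 PBM cells in a Cxcr6-led and 11 and 508 in an Izumo1r-led cluster. The count was also 5 in thinned cells, against 4 at resolution 0.5, and TMM scaling raised each CD4 ratio by 0.22. The share of all genes lower was not computed under these settings or within the Izumo1r-led cluster. The PBM class was mostly Cd40lg-led (817 of 1091 cells) and the control class mostly Foxp3-led (263) and Izumo1r-led (244).

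Gamma-delta cells were few, 57 and 43, and 7 of the 7 genes that passed the count filter were lower in the PBM library, where 8.65% of 2775 genes were, all by 2-fold or more (5.84% of genes). Klrk1 went from 323.5 CPM (81 UMIs) to 57.1 CPM (11 UMIs), a log2 ratio of -2.50 (-3.56 to -1.59), and Klrb1c from 115.8 to 20.8 CPM, -2.48 (-4.45 to -0.97). Ncr1 had a log2 ratio of -2.36 (-4.75 to -0.61) and Klrb1f of -2.21 (-4.61 to -0.43), each on 3 PBM UMIs. Klrd1, with 112 and 41 UMIs, had the smallest, -1.07 (-1.63 to -0.54). The summed NK markers given above differed between these cells in the same direction. This count rests on the clusters: with doublets kept, which leaves 15 control cells, only 1 gene was lower, and 4 were at resolution 2.0, 3 in thinned cells and 1 at resolution 0.5.

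**Figure D3:**
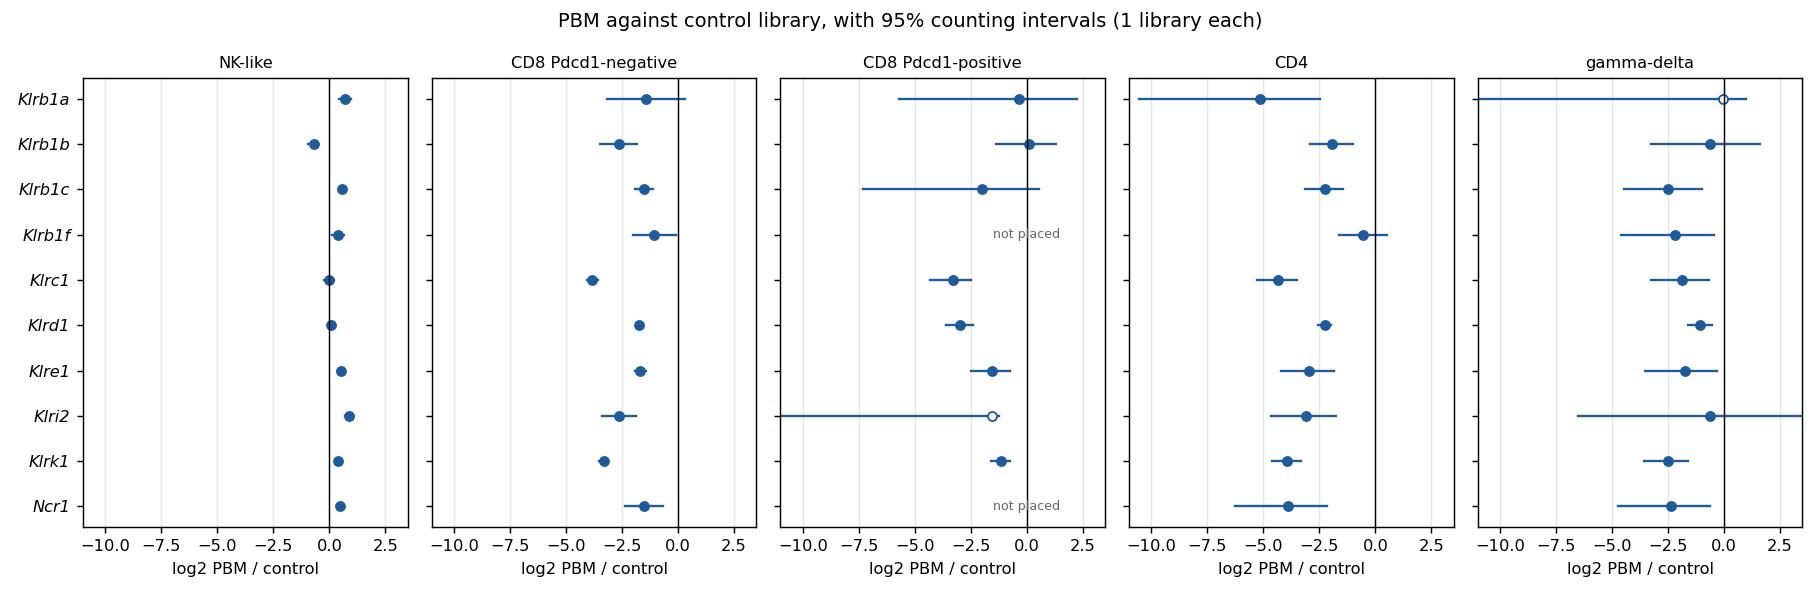
Log2 ratio of PBM over control for each gene in 5 cell classes, 1 library each; lines are 95% counting intervals, open points use the floor of 3 UMIs for a class with 0 UMIs, and genes that the floor cannot place are marked. In NK-like cells the points lie between -0.71 and 0.88, whereas in CD8 Pdcd1-negative cells they reach -3.83 for Klrc1.

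A large cluster of the PBM library held Klrd1 with little of its partners. This Dapl1-led cluster had 2690 PBM and 23 control cells, met 9 of 10 T cell markers and had Cd8b1 and Cd8a among its leading genes; it was left unnamed because Ccr9, listed as a plasmacytoid dendritic marker, also leads it. Klrd1 was at 145 CPM there (140 to 150), close to the 153.1 CPM of CD8 Pdcd1-negative cells, and free RNA could supply 8.82% of it. Klrc1 was at 2.32 CPM, Klrk1 at 2.63, Klre1 at 3.13 and the other 6 between 0.303 and 2.27 CPM, and free RNA could supply 49.3% to 168% of each of these 9. Other PBM clusters had the same order at lower levels, with Klrd1 at 57.9, Klrc1 at 1.65 and Klrk1 at 3.31 CPM in the 97 Ifit1-led cells and 24.7, 0.865 and 2.40 CPM in the Cd40lg-led cells. With this cluster counted among the CD8 cells, 10 of 10 genes were lower in PBM CD8 Pdcd1-negative cells, with Klrc1 at -5.08 and Klrd1 at -1.76. The share of all genes lower was not computed with the cluster counted, and without it that share was 30.7%.

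To compare shares of cells at equal depth, each cell was thinned to 1000 UMIs. In NK-like cells a Klrd1 UMI was found in 45.2% of control (42.5 to 47.9) and 49.0% of PBM cells (41.8 to 56.2), a Klrb1c UMI in 39.9% and 52.6%, and a Klrk1 UMI in 42.3% and 45.4%. Without thinning these shares were 83.8% and 85.2%, 81.8% and 86.7%, and 83.9% and 82.7%. In CD8 Pdcd1-negative cells Klrc1 went from 21.7% (18.5 to 25.1) to 1.87% (1.18 to 2.82), Klrk1 from 23.7% to 3.14% and Klrd1 from 37.3% to 11.8%. The unthinned shares were 47.5% and 8.07%, 52.7% and 8.84%, and 68.0% and 41.7%. B-like cells, which should lack these receptors, gave the background: 0.966% for Klrd1, 1.45% for Klrc1 and 1.93% for Klrk1 in the control (207 cells), and 1.03%, 0.124% and 0.231% in the PBM library (5627 cells), at median depths of 2674 and 4450 UMIs. Klrd1 in PBM CD4 cells, at 2.47%, and in the Dapl1-led cluster, at 13.1%, were above the PBM background. Klrk1 in PBM CD4 cells, at 0.183%, was not.

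**Figure D4:**
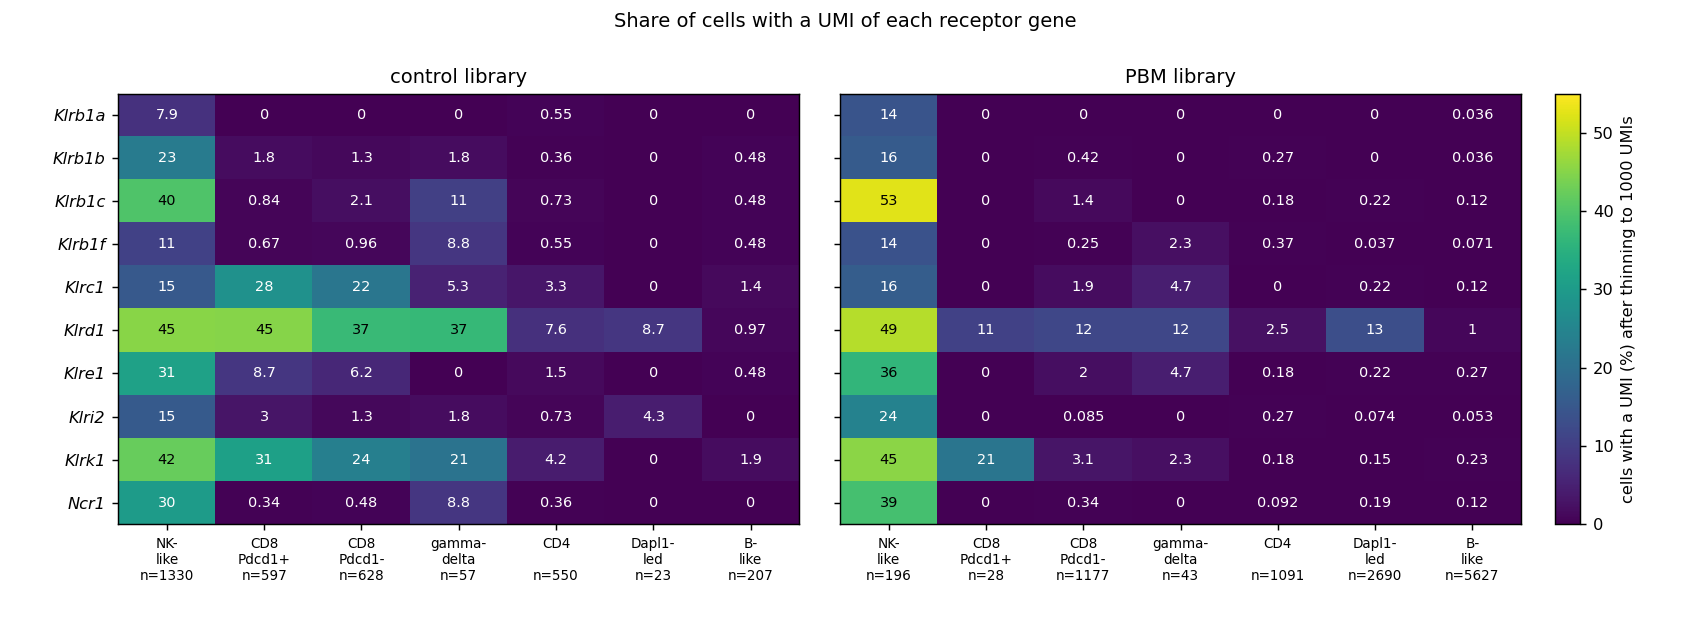
Percent of cells with a UMI of each gene after every cell was thinned to 1000 UMIs, in the control and PBM libraries, with cell numbers under each class; B-like cells give the background. Klrc1 is at 21.7% of CD8 Pdcd1-negative cells for control cells and 1.87% for PBM cells, and Klrb1c at 39.9% and 52.6% of NK-like cells.

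Counted over the 10 genes, thinned NK-like cells held a UMI of 2.61 receptor genes on average in control cells and 3.07 in PBM cells, and 27.1% and 35.7% held 4 or more. CD8 Pdcd1-positive cells held 1.19 and 0.321, CD8 Pdcd1-negative cells 0.949 and 0.213, gamma-delta cells 0.947 and 0.256, and CD4 cells 0.198 and 0.0403. B-like cells held 0.0628 and 0.0210. Cells with none were 7.22% and 3.57% of NK-like cells and 39.3% and 82.2% of CD8 Pdcd1-negative cells.

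**Figure D5:**
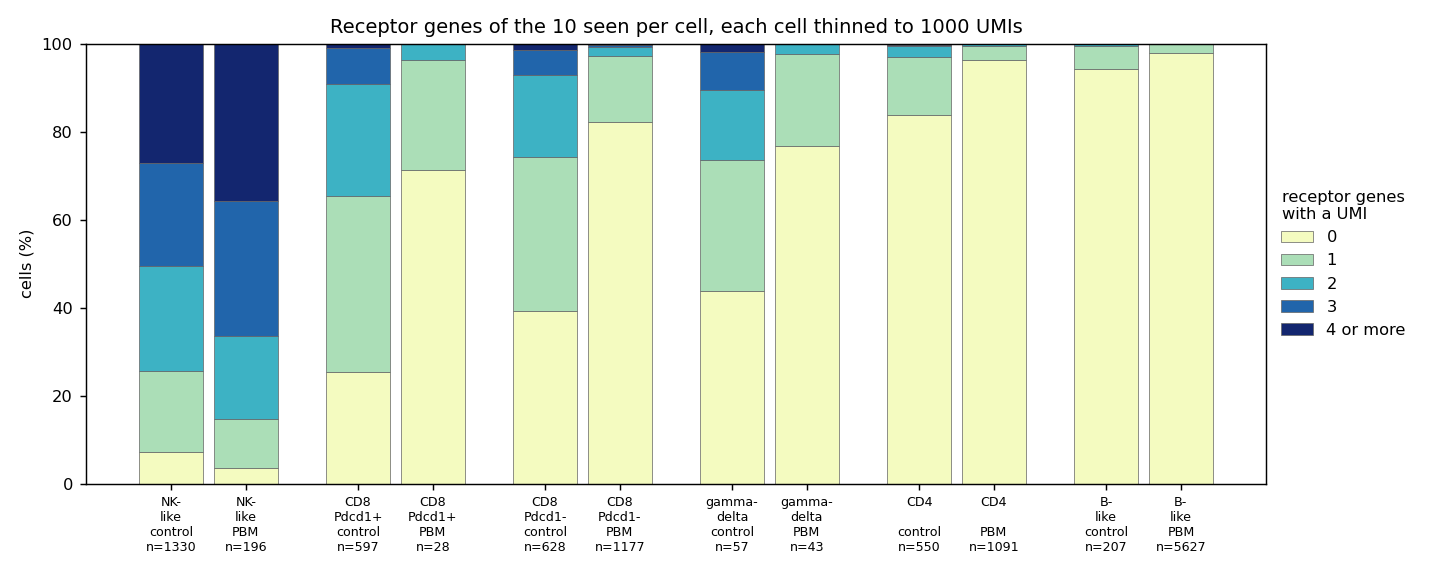
Percent of cells with a UMI of 0, 1, 2, 3 or at least 4 of the 10 genes after thinning to 1000 UMIs, by class and library, with cell numbers. The share with 0 is 7.22% in control NK-like cells and 39.3% and 82.2% in control and PBM CD8 Pdcd1-negative cells.

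Partners were also read in the same cells. Among thinned control CD8 Pdcd1-negative cells, 50% of the 136 with a Klrc1 UMI had a Klrd1 UMI (41.3% to 58.7%), against 33.7% of the 492 without (29.6% to 38.1%). In the PBM class the shares were 31.8% of 22 cells (13.9% to 54.9%) and 11.4% of 1155 (9.65% to 13.4%). In control CD4 cells they were 33.3% of 18 (13.3% to 59.0%) and 6.77% of 532 (4.78% to 9.25%). The CD94 and NKG2A chains thus met more often in one cell within these 3 classes. Each class mixes clusters, however. In the control, Klrc1 was at 366 CPM in Ifng-led and 101 CPM in Ly6c2-led cells, and Klrd1 at 654 and 367 CPM. Cluster make-up was not separated from pairing within a cell, here or for the pairs below. In NK-like cells the intervals of the shares overlapped, with 49.5% and 44.4% in the control and 46.9% and 49.4% in the PBM library, and so they did in control CD8 Pdcd1-positive cells, 49.4% and 43.4%. Ncr1 and Klrb1c met in 46.4% of 401 control NK-like cells with Ncr1 (41.4% to 51.4%) against 37.1% of 929 without (34.0% to 40.3%), while in PBM NK-like cells the intervals overlapped, with 59.2% of 76 (47.3% to 70.4%) and 48.3% of 120 (39.1% to 57.6%). Klrk1 and its adaptor gene Hcst met in 70.3% of 37 PBM CD8 Pdcd1-negative cells with Klrk1 (53.0% to 84.1%) against 37.5% of 1140 without (34.6% to 40.3%). In NK-like cells of both libraries and in control CD8 Pdcd1-negative cells that pair had overlapping intervals, with 34.0% and 34.9%, 51.7% and 46.7%, and 44.3% and 42.0%. For Klre1 and its partner Klri2 the intervals in NK-like cells overlapped in each library, with 17.2% against 14.7% in the control.

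Genes of the same pathway were read from lists, which are set against all genes: in NK-like cells 17.2% of all genes were higher in PBM cells and 10.8% lower (median log2 ratio 0.09), and in CD8 Pdcd1-negative cells 11.8% were higher and 30.7% lower (median -0.16). Of the 4 adaptor genes, 3 were higher and 1 lower in PBM NK-like cells. The lower one was Fcer1g, the Fc receptor gamma chain, at 2088.7 and 1742.2 CPM, a log2 ratio of -0.26 (-0.33 to -0.19). Hcst, which encodes the NKG2D adaptor DAP10, went from 385 to 630.3 CPM, a log2 ratio of 0.71, and Cd247, the CD3 zeta chain, from 81.9 to 149.7 CPM, 0.87. In CD8 Pdcd1-negative cells Hcst was nearly level, at 590.2 and 535.6 CPM, while Klrk1 was 9.92-fold lower. Fcer1g went from 358.3 to 40.1 CPM in the same cells, beside 317.4 and 19.7 CPM in CD4 cells. The part of free RNA in the Fcer1g difference was not tested. Tyrobp, which encodes DAP12, went from 405.4 to 51.6 CPM in CD8 Pdcd1-negative and from 407.2 to 20.2 CPM in CD8 Pdcd1-positive cells. B-like cells had 406.9 and 84.9 CPM, so the CD8 levels of Tyrobp were at or below the background of each library.

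Of 21 related receptor genes, 11 were higher, 1 lower and 9 neither in PBM NK-like cells, with a median log2 ratio of 0.51 against 0.09 over all genes. In CD8 Pdcd1-negative cells, 10 of 17 measured were lower and 1 higher, with a median of -0.63 against -0.16. Tigit, an inhibitory receptor, had a log2 ratio of -3.17 there and Klra5, a Ly49 receptor, of -2.77. Klra1, another Ly49 gene, was higher in PBM CD8 Pdcd1-positive cells, at 43.9 against 6.29 CPM on 13 PBM UMIs. Klrc3 had a ratio of 2.67 in NK-like cells on 14 and 9 UMIs.

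Of 17 signalling genes, 10 were higher and 3 lower in PBM NK-like cells (median 0.37). Syk, a kinase downstream of DAP12, went from 43.0 to 125.2 CPM and Fyn, a Src family kinase, from 136 to 314.6 CPM. Plcg1, a phospholipase, went from 2.26 to 14.3 CPM, on 22 and 14 UMIs. It was at 62.6 and 43.6 CPM in CD8 Pdcd1-negative cells, and the part of T cell RNA in its NK-like levels was not tested. In CD8 Pdcd1-negative cells 10 of 15 were lower and 1 higher (median -0.29); Sh2d2a, a T cell adaptor, went from 274 to 79.6 CPM. The effector list, cytotoxic proteins and chemokines, was lower in all 13 of 13 genes in CD8 Pdcd1-negative cells (median -4.39), with Ccl3 at 437.7 and 3.90 CPM, Ccl4 at 2040.1 and 31.5, Ifng at 294.2 and 4.90 and Gzmc at 102.3 and 2.12 CPM. In NK-like cells the same list had 6 higher and 5 lower (median 0.59). In the CD8 class both effector and receptor genes were thus lower in the PBM library.

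Of 13 measured transcription factor genes, 7 were higher and 3 lower in PBM NK-like cells (median 0.56), and 9 were lower and 4 higher in CD8 Pdcd1-negative cells (median -0.68). In the latter Zeb2 went from 47.5 to 3.12 CPM, Id2 from 750.6 to 92.7 and Nfil3 from 42.1 to 5.35 CPM. Tcf7, which encodes TCF1, was higher in PBM CD8 Pdcd1-positive cells, at 222.7 against 25.9 CPM. Runx3, singled out after its values were seen because of the RUNX letters above, was at 219.5 and 136.9 CPM in CD8 Pdcd1-negative cells, a log2 ratio of -0.68, and at 316.5 and 292.2 CPM in NK-like cells, where its interval held 0.

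The ligands of these receptors were read in the same classes. The list holds 19 genes, not all of them ligands of the members: the classical class I genes H2-K1 and H2-D1, B2m, and Ptprc, which encodes CD45, are not. Of the 9 measured, 6, with H2-K1, H2-D1 and Ptprc among them, were higher and 0 lower in PBM NK-like cells (median 0.40). In CD8 Pdcd1-negative cells 4 were lower and 2 higher (median -0.34), the 4 of 9 lying near the 30.7% of all genes. The 4 lower genes were H2-K1, H2-D1, B2m and Ptprc, so no ligand of the members was called lower there. The 2 higher genes were H2-T23, at 303.7 and 345.6 CPM, and Clec2d, at 114.8 and 148.2 CPM. H2-T23, which encodes Qa-1, the ligand of CD94 and NKG2A, went from 248.7 to 446 CPM in NK-like cells. It was at 204.3 CPM in control monocyte and macrophage-like cells, 423.6 in control dendritic-like cells and 478.3 in PBM B-like cells. Clec2d, which encodes the Klrb1b ligand Clr-b, went from 127.6 to 180.2 CPM in NK-like cells, while Klrb1b itself was lower. Raet1e, a ligand of NKG2D, was at 9.35 and 17.3 CPM in NK-like cells and highest in the Sparc-led and the monocyte and macrophage-like cells of the control, at 40.1 and 39.6 CPM. Clec2i, which encodes Clr-g, was at 11.3 and 40.5 CPM in CD8 Pdcd1-positive cells, on 12 PBM UMIs.

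The genes most alike in pattern were taken from 4821 genes over 15 class-by-library profiles, which share 2 libraries. Pearson's r is given as a description with no test. Klrb1a, Klrb1c, Klrb1f and Ncr1 all had Clnk and Klra9 among their 3 closest genes, with r from 0.92 to 0.98. Klrc1 was closest to Xcl1 (r = 0.97), Klrd1 to Nkg7 (0.95), Klre1 to Dapk2 (0.96), Klri2 to Arsb (0.93) and Klrk1 to Il12rb2 (0.95). Klrb1b stood apart, with Itgax (0.91), Apobr (0.89) and Gsap (0.89) as its closest genes; Itgax encodes CD11c, which myeloid cells carry.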

How the data were processed

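Single-cell RNA was measured in 1 control and 1 PBM library with the Chromium 3′ kit v3.1, per the labels. The deposited values are raw UMI counts per gene and cell; the matrix header names PISA 0.12, while the submitters' processing notes name Cell Ranger 7.2.0 and the build mm10, and which of them made the counts is not stated. No normalization preceded deposit, as far as the sources used here say.

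Barcodes under 500 UMIs, under 200 genes or above 10% mitochondrial UMIs were dropped, leaving 11227 control and 13961 PBM cells. Scrublet marked 128 control (1.14%) and 899 PBM (6.44%) cells as doublets, which were left out. Both libraries were clustered together (scanpy 1.11.5, Python 3.11.15; 2000 variable genes, 30 components, 15 neighbours, Leiden resolution 1.0), with the 10 genes, Klrb1, Klrc2, Klrc3 and Klri1 kept out. Each cluster was assigned to the marker list of which it met the greatest part. Within T-like clusters, gamma-delta cells needed a Trdc UMI and at least 2 UMIs over the gamma-delta genes, with no Cd4 or Cd8b1 UMI; CD8 cells at least 1 UMI of Cd8a or Cd8b1 without any of Cd4; CD4 cells the converse; and Pdcd1-positive cells at least 1 Pdcd1 UMI. The names are rebuilt from markers and are not the authors' own.

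Levels are UMIs of a class summed per library, per 1000000, with exact Poisson intervals; ratios have exact conditional binomial intervals and shares exact Clopper-Pearson intervals, at the 95% level. A gene with 0 UMIs in a library was set to a floor of 3 UMIs. Since each group is a single library, no replicate spread and no p-value can be given. Free RNA in a class was estimated from markers of other cell types. The rule for calls was checked on counts simulated with counting error only. That check cannot show how the rule fares with differences between cells, cluster make-up, free RNA or libraries. TMM scaling used edgeR 4.0.16 in R 4.3.3 for scale factors only. Promoters were read from RefSeq (GRCm38.p6).

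All 10 genes are named in every class; from each pathway list, up to 4 genes with the widest ratio in NK-like or CD8 cells; and for each gene the 3 most alike genes by Pearson's r of log2(CPM + 1), among genes with at least 50 CPM in a profile of at least 50 cells. The members and lists were chosen with earlier results of these data known. Alternatives were the cluster resolution, members allowed in clustering, doublets kept, thinning, TMM scaling, free RNA subtracted, gates without clusters and stricter gates; those restricted to 1 cluster, or with the Dapl1-led cluster added, were chosen after seeing the data.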

Additional observations from a re-analysis of the deposited data

Results flagged for a closer look

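For 6 genes the PBM and control libraries differed in opposite directions in NK-like and in CD8 Pdcd1-negative cells. The log2 ratios of PBM over control were 0.56 and -1.51 for Klrb1c, 0.39 and -1.06 for Klrb1f, 0.52 and -1.69 for Klre1, 0.88 and -2.62 for Klri2, 0.38 and -3.31 for Klrk1 and 0.49 and -1.53 for Ncr1. Each group is 1 library, so the difference between the classes was not tested. Both classes share the libraries, and the CD8 class drew on different clusters in each. In CD8 Pdcd1-negative cells Klrb1c, Klrb1f, Klri2 and Ncr1 were at low levels, part of which free RNA could supply. NK-like cells were a smaller share of the PBM library than of the control. The part of stray RNA from NK-like cells in these CD8 ratios was not tested.

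Klrb1b was also present outside the lymphocyte classes. In the Cd209a-led cluster of the control, left unnamed, it was at 172.2 CPM (407 UMIs in 319 cells), against 1.60 CPM in B-like cells of that library.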

How the results depend on the processing

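Each result was recomputed under other settings, giving 436 log2 ratios of single genes: 315 moved by less than their counting interval, 113 moved further, 109 of them with the same sign, and 8 reversed, which means that a ratio whose interval left out 0 took the other sign. The 4 that moved further with the other sign had not been called: Klrd1 in NK-like cells at -0.07 under TMM scaling, Klrc1 there at 0.25 in cells gated without clusters, Klrb1b in CD8 Pdcd1-positive cells at -2.30 at resolution 0.5 and Klrb1f in CD4 cells at 1.24 in the Izumo1r-led cluster. In NK-like cells 0 of 100 reversed. The counts of genes called moved as follows, with no share of all genes computed beside them. At resolution 0.5, where the Ifng-led cluster went unnamed, 2 were lower in CD8 Pdcd1-negative, 0 in CD8 Pdcd1-positive, 4 in CD4 (1 higher) and 1 in gamma-delta cells; the ratio of Klrd1 reversed to 0.28, 0.29, 0.86 and 0.62 in these 4 classes, and in CD8 Pdcd1-positive cells Klre1 reversed to 0.29 and Klrk1 to 0.22. In thinned cells 4 were higher in NK-like cells, and 2 were lower in CD8 Pdcd1-positive, 5 in CD4 and 3 in gamma-delta cells. Gates without clusters gave 4 higher and 0 lower in NK-like cells, with Klrb1b at -0.0002. Stricter gates gave 0 lower in NK-like cells and 2 in CD8 Pdcd1-positive cells, where Klre1 reversed to 0.17. In gamma-delta cells 4 were lower at resolution 2.0 and 1 with doublets kept. In the Izumo1r-led cluster, chosen after seeing the data, 5 were lower in CD4 cells and Klrb1b reversed to 0.21. Resolution 0.5 left 69, 10, 296 and 4 control cells in the 4 T classes, thinning left fewer UMIs and stricter gates fewer cells; beyond this the cause was not tested. Stricter gates were not run for gamma-delta cells. No library could be left out, since each group has 1. No paired analysis was possible because each group has 1 library. Depth limits the PBM CD8 Pdcd1-positive class, with 28 cells, and the gamma-delta class, with 43.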

Other observations

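Other cells also held some of these genes. In the Cd209a-led cluster (319 control and 101 PBM cells), Klrd1 was at 165.4 and 73.8 CPM and Klrk1 at 140 and 22.7 CPM, while Klrc1 was at 9.73 and 1.89 CPM. Klrb1b there was at 172.2 and 13.3 CPM. In the Fpr2-led monocyte and macrophage-like cluster Klrb1b was at 38.6 CPM in 2709 control cells and 40.9 CPM in 53 PBM cells.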
